A study of Mus musculus with 4 samples.

Results

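Immediate early regulators of the AP-1, ATF and EGR kind were followed in mouse BV-2 cells, an immortalised microglial line, with and without lipopolysaccharide (LPS), an outer membrane molecule of Gram-negative bacteria that Toll-like receptor 4 recognises. The 10 genes, chosen by symbol with earlier results of these data known, were the JUN genes Jun, Junb and Jund, the FOS genes Fos, Fosb and Fosl2, and Atf3, Egr1, Egr2 and Ier2, out of 23783 genes with a record in the deposited table. Each gene was represented by its RefSeq record with the most counts. The LPS group was 2 libraries of cells given LPS at 10 ng/ml for 4 h, and the control group was 2 libraries labelled control with the same time. No genotype was altered in either group, both are the same line, and nothing in the labels says whether the 2 libraries of a group are independent cultures. The p-values therefore measure only the spread between these libraries, which may be technical. The growth text names BV-2 cells but also a shake-off of mixed glia, while all 4 libraries carry the cell line's name.

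Immediate early genes are transcribed within minutes of a stimulus from pre-existing factors, without new protein synthesis, and many of their messages are short-lived. AP-1 is a dimer of basic leucine zipper proteins. JUN proteins can pair with each other or with FOS proteins, whereas FOS proteins need a JUN partner, and dimers bind the TPA response element (TRE) or the related cyclic AMP response element (CRE). EGR proteins are zinc finger factors that bind GC-rich sites, and in macrophages and microglia both families are known as early targets of the MAP kinase pathways that Toll-like receptors switch on.

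The 5 members that could be tested, Junb, Atf3, Fosl2, Jun and Ier2, were all higher after LPS, by 2.04-fold to 3.86-fold. Junb was the most abundant of them and, with Atf3, had the largest fold. Fos and Egr2 had under 20 counts per group, Fosb had 1 count in all, and Jund and Egr1 were listed at 0 in every library. These zeros are values as listed, not evidence that the transcripts were absent.

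Library totals ran from 2778686 to 3368693 counts, of which the 5 most abundant records, led by a ribosomal RNA record and Lars2, took 53.4% to 67.5%. Of 12 microglial and macrophage markers 11 were above 0, with summed counts of 3525 and 3320 in the LPS libraries and 2367 and 3259 in the controls. Tyrobp, Csf1r, Spi1 and Laptm5 were abundant, while Itgam was listed at 0, Trem2 had at most 1 count, Aif1 3 to 7 and Cx3cr1 2 to 9. Markers of astrocytes, oligodendrocytes, neurons and fibroblasts summed to at most 2 counts per list and library. The endothelial list held 326 to 526 counts per library, all but at most 2 of them from Kdr.

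The 250 bases before the annotated start are shown for the 4 AP-1 and ATF members that passed the test and have an entry in the RefSeq table (GRCm38.p6), and for Fos, a family member whose counts were too low to test. Each is given 5′ to 3′ on the gene's strand, with matches to the searched motifs in capitals. The windows are chr4:95052223-95052472 (minus strand) for Jun, chr8:84978749-84978998 (minus) for Junb, chr1:191183334-191183583 (minus) for Atf3, chr5:32136222-32136471 (plus) for Fosl2 and chr12:85473640-85473889 (plus) for Fos.
Jun: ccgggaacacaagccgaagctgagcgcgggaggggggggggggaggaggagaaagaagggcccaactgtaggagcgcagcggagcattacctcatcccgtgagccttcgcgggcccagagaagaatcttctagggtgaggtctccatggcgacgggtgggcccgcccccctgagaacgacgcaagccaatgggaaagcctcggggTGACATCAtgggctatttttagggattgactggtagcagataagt
Junb: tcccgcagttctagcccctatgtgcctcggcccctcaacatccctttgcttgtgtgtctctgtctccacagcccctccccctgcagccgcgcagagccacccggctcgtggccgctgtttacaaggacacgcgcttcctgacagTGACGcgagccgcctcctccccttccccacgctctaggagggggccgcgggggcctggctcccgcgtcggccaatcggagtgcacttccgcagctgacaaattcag
Atf3: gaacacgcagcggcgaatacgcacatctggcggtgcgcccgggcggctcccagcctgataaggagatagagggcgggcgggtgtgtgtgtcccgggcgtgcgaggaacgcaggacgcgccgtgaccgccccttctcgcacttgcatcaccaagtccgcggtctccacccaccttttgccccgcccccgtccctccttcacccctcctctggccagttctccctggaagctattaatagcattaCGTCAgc
Fosl2: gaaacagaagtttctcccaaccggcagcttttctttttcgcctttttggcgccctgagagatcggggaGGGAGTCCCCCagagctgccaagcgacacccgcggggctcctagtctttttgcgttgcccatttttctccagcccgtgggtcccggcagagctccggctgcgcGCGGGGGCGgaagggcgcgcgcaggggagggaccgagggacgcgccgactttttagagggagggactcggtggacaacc
Fos: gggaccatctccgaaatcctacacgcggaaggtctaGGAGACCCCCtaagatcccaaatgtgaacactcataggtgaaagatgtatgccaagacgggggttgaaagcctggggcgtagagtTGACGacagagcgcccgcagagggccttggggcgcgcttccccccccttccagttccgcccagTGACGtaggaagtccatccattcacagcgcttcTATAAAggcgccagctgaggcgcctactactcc

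Motifs were searched on both strands over 32841 windows of the same length, so each match can be read against its background. The 8-letter TRE or CRE form TGACNTCA, present in 7.49% of windows, occurred in Jun as TGACATCA, 45 to 38 bases before the start. The CRE core TGACG, present in 17.8% of windows and contained in the full CRE, occurred in Junb at 106 to 102 bases, on the other strand of Atf3 at 7 to 3 bases, and at 2 places in Fos, 129 to 125 and 66 to 62 bases. The EGR motif GCGNGGGCG, present in 4.70% of windows, occurred in Fosl2 at 79 to 71 bases. An NF-kB motif, present in 7.25% of windows, occurred in Fosl2 at 182 to 173 bases, where a second match on the other strand overlaps it by all but 1 base, and on the other strand of Fos at 214 to 205 bases. The TATA box TATAAA, in 12.4% of windows, occurred in Fos at 33 to 28 bases. Neither the 7-letter TRE TGANTCA, in 6.75% of windows, nor the CArG box, in 1.47%, was found in the 5 windows. Bases farther upstream were not searched, so the lack of a match does not show that a gene, Fos included, has no such site. A match is a description of these letters and not evidence of binding.

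Values below are normalised counts, that is, deposited counts divided by each library's TMM-scaled size and multiplied by the mean scaled size. Junb, a JUN protein that often opposes or replaces c-JUN (NM_008416, chromosome 8, 84976909 to 84978748), had 1165 and 1126 normalised counts in the LPS libraries, against 339 and 257 in the control libraries. Both LPS libraries lay far above both controls, and the lower of the LPS values was well over the higher control value. The log2 fold change was 1.95 (SE 0.198, 95% interval 1.51 to 2.39, n = 2 per group), with an adjusted p of 8.45e-05 in edgeR's quasi-likelihood test. The fold change of 3.86 ranked 129 among the 267 records called higher, so it lay near the middle of the induced genes.

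Jun, the founding AP-1 subunit c-JUN (NM_010591, chromosome 4, 95049036 to 95052222), had 178 and 202 normalised counts in the LPS libraries, against 87.2 and 83.6 in the controls. The groups did not overlap, and the log2 fold change was 1.16 (SE 0.214, 95% interval 0.69 to 1.63, adjusted p 0.00736). The adjusted p was 0.0514 without LPS replicate 1 and 0.196 without LPS replicate 2, against a lowest value of 3.85e-11 over the other settings. An antisense gene, Junos, overlaps Jun in the GENCODE M21 annotation. The kit was directional, but the strand setting of the counting is not stated. Whether reads of the pair were counted apart is therefore unknown.

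Jund, a JUN protein known for steady expression in many cells, has 2 records in the table, and both were listed at 0 in all 4 libraries. Genes with 2 or more records were at 0 in 59.2% of 4765 cases and reached 40 counts over the 4 libraries in 6.27%. Genes with 1 record were at 0 in 45.8% of 19018 cases and reached 40 counts in 34.36%. The zero of Jund is therefore given as a listed value and not as absence of the transcript, and the part played by the number of records was not tested.

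Fosl2, which encodes the FOS-related subunit FRA-2 (NM_008037, chromosome 5, 32136472 to 32157840), had 135 and 142 normalised counts in the LPS libraries, against 47.8 and 34.6 in the controls. Both LPS values lay far above both control values. Its log2 fold change was 1.77 (SE 0.255, 95% interval 1.21 to 2.33, adjusted p 0.0013). It was the FOS gene with the most reads in both groups.

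Fos, the first described FOS gene (NM_010234, chromosome 12, 85473890 to 85477274), had 8 and 10 raw counts in the LPS libraries, against 3 and 0 in the controls. These 18 and 3 counts gave a ratio of 5.41 over the scaled library sizes, with an exact 95% interval of 1.58 to 28.6 that covers counting error only. The record did not reach the count filter. In a fit with no filter its log2 fold change was 2.36 with an adjusted p of 0.0664. Fosb, a further FOS gene, had 0 counts in both LPS libraries and 1 and 0 in the controls, which allows no comparison.

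Atf3, a stress-inducible zipper factor known to restrain Toll-like receptor responses in macrophages (NM_007498, chromosome 1, 191170296 to 191183333), had 230 and 221 normalised counts in the LPS libraries, against 60.5 and 56.5 in the controls. The libraries of each group agreed closely and the groups were far apart. The log2 fold change was 1.95 (SE 0.218, 95% interval 1.47 to 2.43, adjusted p 0.000175), the same fold of 3.86 as for Junb from a lower level.

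**Figure D1:**
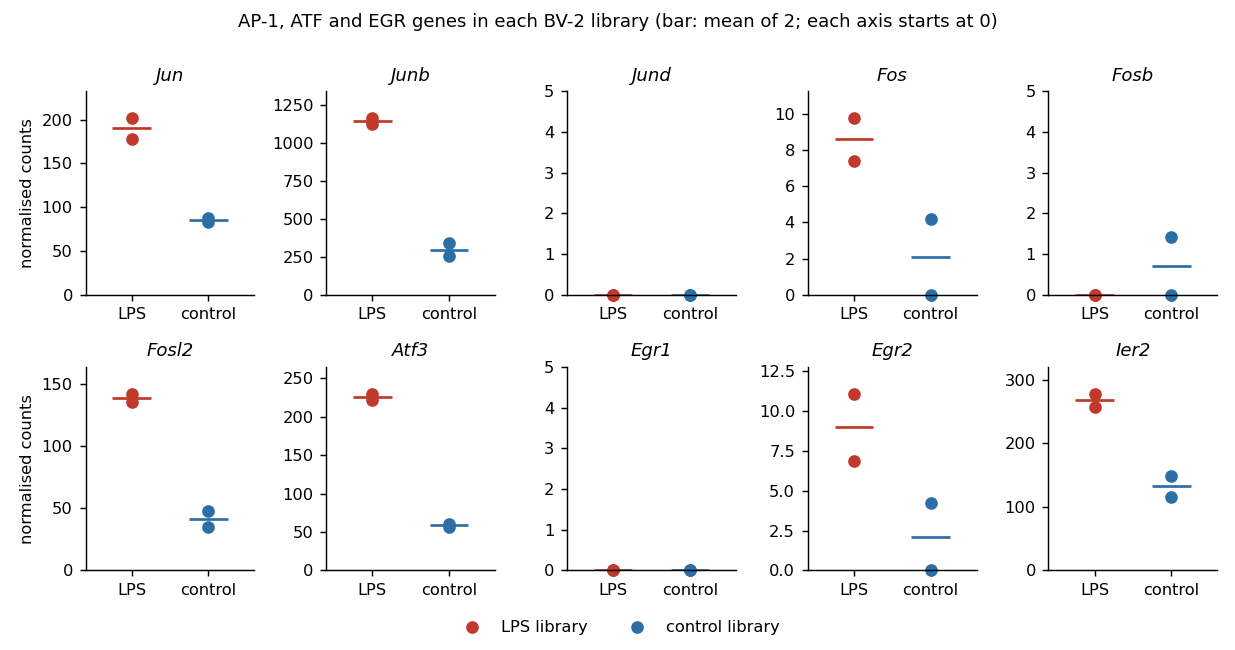
Normalised counts of each of the 10 genes (vertical axis, from 0, with its own scale per gene) in the 2 LPS libraries and the 2 control libraries, as points with a bar at the mean. Junb, Atf3, Fosl2, Jun and Ier2 show LPS points well above the control points, Fos and Egr2 stay under 12 normalised counts, and Jund and Egr1 lie at 0.

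Egr1, the prototype EGR factor (NM_007913, chromosome 18, 34861207 to 34864956), was listed at 0 in all 4 libraries. Unlike Jund it has a single record, and no count was assigned to that record. Egr2, an EGR factor also known as Krox20 (NM_010118, chromosome 10, 67534469 to 67542188), had 12 and 7 raw counts in the LPS libraries, against 0 and 5 in the controls. The sums of 19 and 5 counts gave a ratio of 3.42 with an exact 95% interval of 1.24 to 11.7 for counting error. With no count filter its log2 fold change was 1.77 and its adjusted p 0.168, so Egr2 did not pass the test.

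Ier2, a small nuclear protein of the immediate early class (NM_010499, chromosome 8, 84661331 to 84662852), had 257 and 278 normalised counts in the LPS libraries, against 148 and 116 in the controls. The groups did not overlap, with the smallest fold of the 5 at 2.04. The log2 fold change was 1.03 (SE 0.209, 95% interval 0.57 to 1.49, adjusted p 0.0131). The adjusted p was 0.123 without LPS replicate 1 and 0.259 without LPS replicate 2, against a lowest value of 2.57e-11 over the other settings.

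Of 6981 records tested, 267 were higher after LPS at an adjusted p below 0.05, or 3.82%, and 119 were lower, or 1.70%. Against that background, 5 of the 5 members tested were higher and 0 lower. No member was lower at an unadjusted p below 0.05 in edgeR or in the DESeq2 Wald test, which also called 5 higher. The other 5 members were not tested, so the count speaks only for the members with enough reads. Both LPS values exceeded both control values in all 5, as they did in 21.4% of all tested records, while 21.9% had both LPS values below both control values. The number of members higher was 3 without LPS replicate 1 and 3 without LPS replicate 2, where Jun and Ier2 were lost. It was 6 without control replicate 1, where Fos was added (remaining control count 0, adjusted p 0.00747), and 6 without control replicate 2, where Egr2 was added (remaining control count 0, adjusted p 0.0465). Over all records 182 were higher without LPS replicate 1, 165 without LPS replicate 2, 630 without control replicate 1 and 723 without control replicate 2, and 51, 39, 492 and 581 were lower.

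**Figure D2:**
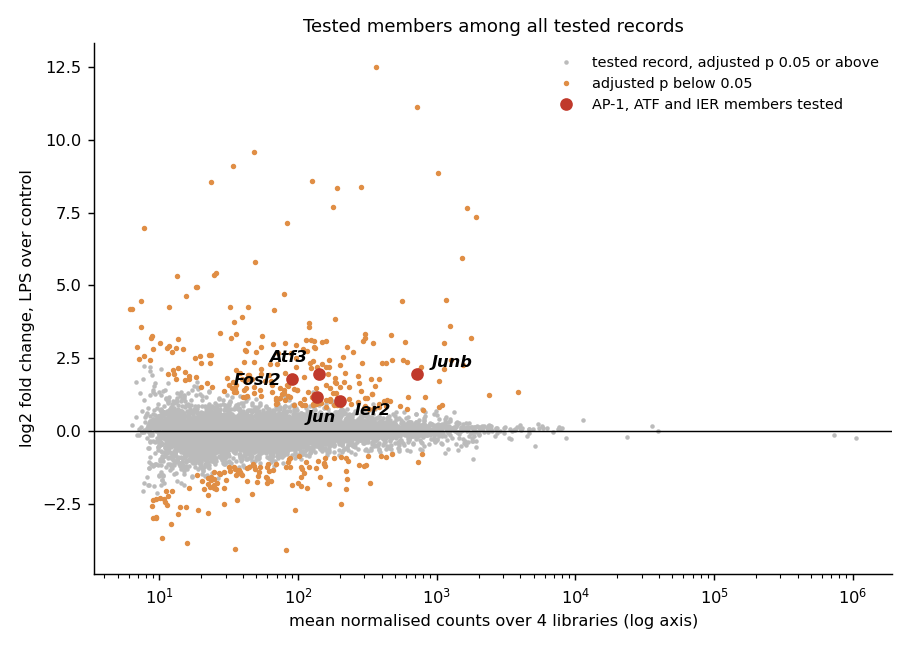
Each tested record by its mean normalised count over the 4 libraries (horizontal log axis) and its log2 fold change of LPS over control (vertical axis), with records past an adjusted p of 0.05 in orange and the 5 tested members in red. The members lie between log2 fold changes of 1.03 and 1.95, above the body of the data and below the most strongly induced records.

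Libraries of a group differed along GC content. Across 6924 records, which share libraries and depth, the log2 difference of replicate 1 over replicate 2 correlated with GC content at a Spearman rho of 0.266 in the LPS pair and 0.662 in the control pair. All 5 tested members had higher values in control replicate 1 than in control replicate 2. Their transcripts held 62.6% GC for Junb, 60.9% for Ier2, 55.5% for Jun, 53.1% for Fosl2 and 52.2% for Atf3, and the gap between the controls was proportionally widest for Fosl2. After removal of the dependence on GC and length, the log2 fold change was 2.03 for Junb, 1.90 for Atf3, 1.94 for Fosl2, 1.18 for Jun and 1.05 for Ier2, and all 5 passed the test.

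Per kilobase of transcript the members stood in the same order in both groups. In LPS libraries the levels were 633 ± 15.4 normalised counts per kb for Junb, 176 ± 9.63 for Ier2, 114 ± 3.28 for Atf3, 59.7 ± 5.32 for Jun and 21.2 ± 0.738 for Fosl2 (SD, n = 2). In control libraries they were 165 ± 32.2 for Junb, 86.8 ± 14.5 for Ier2, 29.5 ± 1.40 for Atf3, 26.8 ± 0.810 for Jun and 6.30 ± 1.43 for Fosl2 (SD, n = 2). Atf3 and Jun were well apart in the LPS libraries, with 116 and 111 normalised counts per kb for Atf3 and 56.0 and 63.5 for Jun. They were close neighbours in the controls, with 30.5 and 28.5 for Atf3 and 27.3 and 26.2 for Jun. Fos and Egr2 overlapped each other after LPS, at 3.51 and 4.64 for Fos and 3.74 and 2.31 for Egr2.

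The sum of the 10 genes per kb was 1013 and 1008 in the LPS libraries, against 352 and 280 in the control libraries. Junb made up 63.6% and 61.7% of that sum in the LPS libraries, against 53.2% and 50.7% in the controls. Ier2 made up 16.7% and 18.1% after LPS, against 27.6% and 27.4% in controls, and Jun 5.53% and 6.30%, against 7.77% and 9.37%. The share of Fosl2 stayed near 2%, at 2.04% and 2.15% after LPS and 2.08% and 1.89% in controls. Jund and Egr1, listed at 0, add nothing to these shares.

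**Figure D3:**
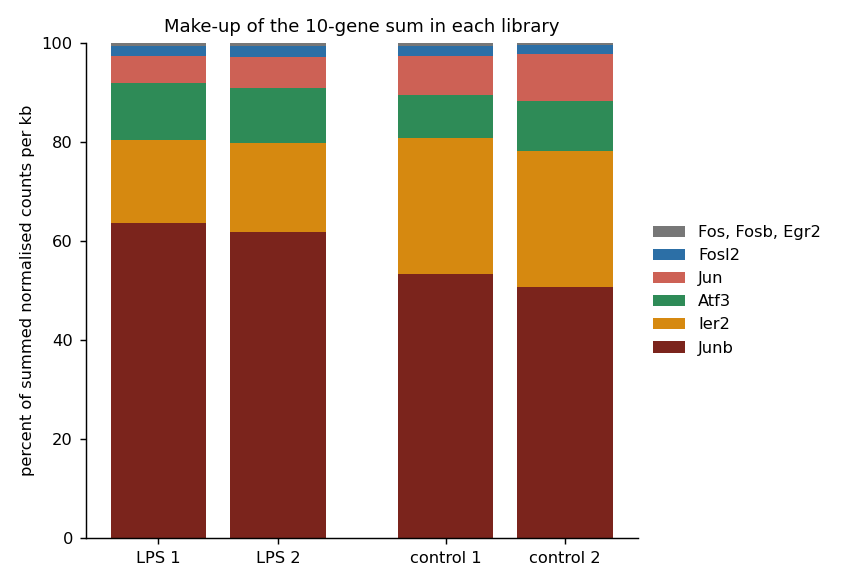
Stacked bars of the share (percent, vertical axis) of each gene in the summed normalised counts per kb of the 10 genes, for the 2 LPS and the 2 control libraries. The Junb share is 61.7% to 63.6% in the LPS libraries and 50.7% to 53.2% in the control libraries, and the Ier2 share runs the other way.

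Ratios between members within a library do not depend on how libraries are scaled. Such ratios can still carry the dependence on GC content described above, and no GC-corrected ratios were computed. Junb per kb was 11.5 and 9.80 times Jun in the LPS libraries, against 6.85 and 5.41 times in the controls. Atf3 was 2.07 and 1.75 times Jun after LPS, against 1.11 and 1.09 times in the controls, and Fosl2 was 0.369 and 0.342 times Jun, against 0.268 and 0.202. In all 3 ratios the LPS values lay above the control values, with no overlap. Junb over Atf3 was 5.55 and 5.59 after LPS, within the 6.15 and 4.98 of the controls, and Jun over Ier2, at 0.331 and 0.348, overlapped the 0.282 and 0.342 of the controls. Of 10 such ratios 7 did not overlap between groups. The 10 ratios share 5 genes, so they are not independent, and the share over ratios of other gene pairs was not computed. Among single tested records, 21.4% did not overlap with LPS higher and 21.9% with LPS lower. The ratios are given as values with no test. With 2 libraries against 2, an exact two-sided permutation test cannot give a p below 0.333.

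Other AP-1, ATF and EGR genes gave calls in both directions. Of 27 listed, 26 had a record and 11 were tested. Of these 11, 1 was higher, 1 lower and 9 did not pass, where 3.82% of all tested records were higher and 1.70% lower. The median log2 fold change of the 11 was 0.21 against -0.01 over all tested records. At an unadjusted p below 0.05, 6 of the 11 passed, 4 of them lower. Maff, a small MAF protein that lacks an activation domain, had 86.0 and 86.1 normalised counts in the LPS libraries, against 18.3 and 24.5 in the controls (log2 fold change 1.97, SE 0.284, adjusted p 0.00132). Its fold was as large as those of Junb and Atf3. Maf, a large MAF factor of macrophage differentiation, had 74.9 and 69.4 after LPS, against 141 and 196 in the controls (log2 fold change -1.23, SE 0.239, adjusted p 0.00994). The adjusted p of Maf was 0.108 without LPS replicate 1 and 0.193 without LPS replicate 2, with a lowest value of 1.88e-12 over the other settings.

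Atf6b and Atf6, membrane-bound stress factors and the most abundant genes of the list that did not pass, had log2 fold changes of 0.48 and -0.43, with adjusted p of 0.324 and 0.317. They passed under some of the other settings, with adjusted p down to 1.41e-06 and 0.00181 without control replicate 1. The count of genes higher in this list was 4 without control replicate 1 and 2 without control replicate 2, and that of genes lower was 0 when an LPS library was left out and 2 when a control library was left out. All 9 list genes with 2 or more records, Atf2, Creb1, Crem and Egr3 among them, fell below the count filter.

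Among other immediate early genes, 21 of 32 listed were tested and 13 were higher. Over all tested records 3.82% were higher and 1.70% lower. The median log2 fold change of the 21 genes was 1.29, against -0.01 over all tested records. None was lower in edgeR, at an unadjusted p below 0.05 (0 genes) or in the DESeq2 Wald test (0 genes, and 13 higher). Dusp1, Trib1, Plk3 and Socs3 passed the count filter through the LPS libraries alone, so their direction was partly fixed by the filter. Without these 4 genes, 10 of 17 were higher and the median log2 fold change was 1.19. Socs3, an inhibitor of cytokine receptor signalling, had 125 and 128 normalised counts in the LPS libraries, against 8.44 and 5.91 in the controls. Ier3, a survival gene of the same class as Ier2, had 382 and 406, against 66.1 and 43.0 (log2 fold change 2.88, SE 0.244, adjusted p 2.14e-05).

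Ier3 thus changed by a larger fold than any of the 5 tested members. Dusp1, a phosphatase that switches off p38 and JNK, had 23.1 and 43.0 normalised counts after LPS, against 9.85 and 2.53 in the controls. Its values are given as a description, since only its LPS counts brought it past the filter. Gadd45b and Zfp36l1 did not pass, with log2 fold changes of 0.57 and -0.09.

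Among kinases and factors that act upstream of AP-1 and EGR transcription, 15 of 25 listed genes were tested, and 2 were higher. Over all tested records 3.82% were higher and 1.70% lower. The median log2 fold change of the 15 genes was 0.14, against -0.01 over all tested records. None was lower in edgeR, at an unadjusted p below 0.05 (0 genes) or in DESeq2 (0 genes, and 2 higher). Map3k8, the kinase TPL2 that links Toll-like receptors to the MAP kinase cascade, had 62.9 and 73.3 normalised counts in the LPS libraries, against 18.3 and 20.3 in the controls (3.49-fold, SE 0.295 on the log2 scale, adjusted p 0.00334). Mapkapk2, the kinase MK2 that p38 activates, had 3552 and 3177, against 1616 and 1237 (log2 fold change 1.24, SE 0.196, adjusted p 0.00261). Mapkapk2 lost its call without LPS replicate 1 (adjusted p 0.0634), which left 1 gene higher, and its lowest adjusted p over the other settings was 4.02e-32. Without control replicate 1 the list had 3 genes higher and 1 lower, and without control replicate 2 it had 3 higher.

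Map2k1, which encodes the kinase MEK1, had a log2 fold change of 0.08 (95% interval -0.36 to 0.53). Srf, the serum response factor that drives Fos and Egr1 transcription, had a log2 fold change of 0.33 (-0.14 to 0.80). Both intervals span 0 and end below the log2 fold change of 1.24 estimated for Mapkapk2, whose own interval was 0.81 to 1.67. The intervals cover only the spread between these libraries. Srf was named after its values were seen.

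**Figure D4:**
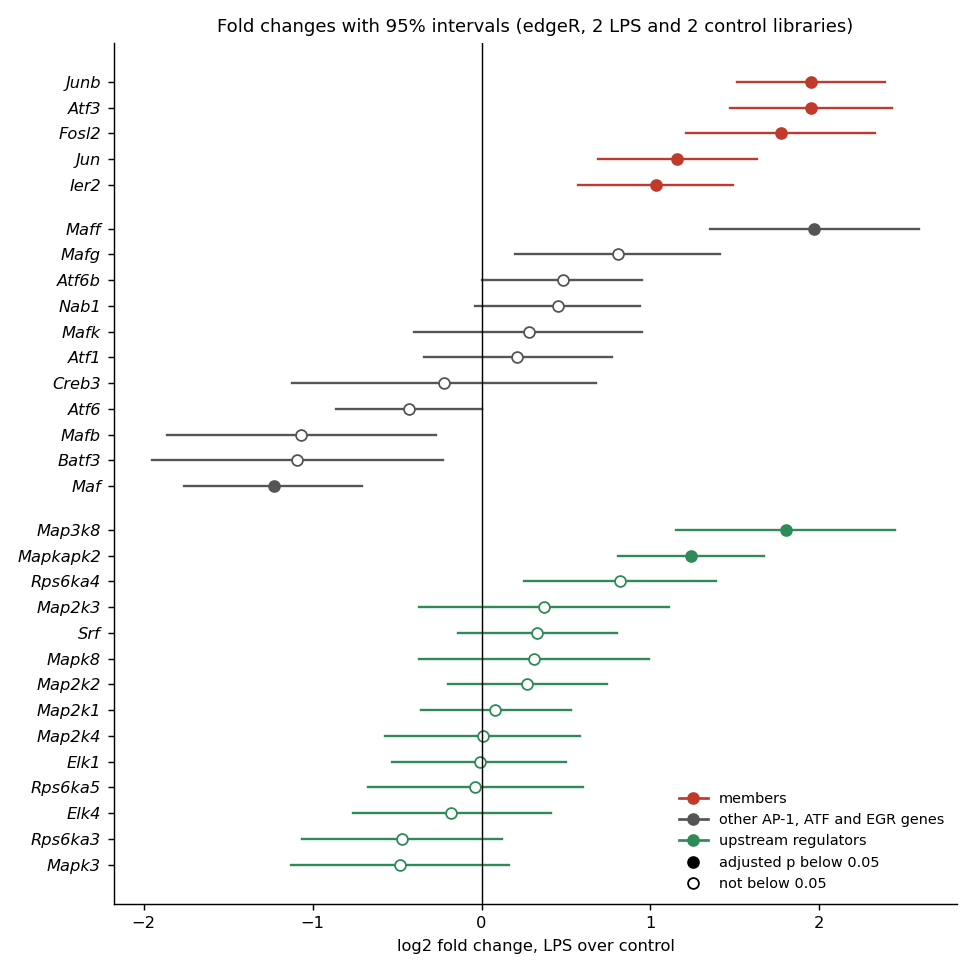
Log2 fold changes of LPS over control (horizontal axis) with 95% intervals for the 5 tested members, the other tested AP-1, ATF and EGR genes and upstream regulators, with filled points for an adjusted p below 0.05. All 5 members are filled and right of 0, while Maff, Maf, Map3k8 and Mapkapk2 are the filled points among the rest.

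Of 19 genes known as AP-1 or EGR targets in other settings, 14 were tested, 8 were higher and 2 lower. Over all tested records 3.82% were higher and 1.70% lower. The median log2 fold change of the 14 genes was 2.15, against -0.01 over all tested records. Mmp13, Il6, F3 and Ptges passed the count filter through the LPS libraries alone, and without these 4 genes 4 of 10 were higher and 2 lower, with a median log2 fold change of 0.72. Ptgs2, the inducible cyclooxygenase, had 2821 and 3196 normalised counts in the LPS libraries, against 42.2 and 54.0 in the controls (log2 fold change 5.94, SE 0.238, adjusted p 5.87e-08). Il6 had 202 counts over the LPS libraries and 0 over the controls, at least 60.7-fold higher against a floor of 3 counts over the control group. Mmp13, a collagenase with a well-known AP-1 site, had 25 counts over the LPS libraries and 1 over the controls, a ratio of 22.5 with an exact 95% interval of 3.69 to 925. Vim and Hmox1 did not pass, with log2 fold changes of 0.03 and 0.60.

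The genes lower in this list were Plau and Ccnd1, named here because they were the only 2. Plau, the urokinase protease, had 72.1 and 72.4 normalised counts in the LPS libraries, against 187 and 246 in the controls (log2 fold change -1.59, SE 0.228, adjusted p 0.0013). Ccnd1, the cell cycle gene cyclin D1, had 141 in both LPS libraries, against 304 and 227 in the controls (log2 fold change -0.90, adjusted p 0.0302). The DESeq2 Wald test called 5 genes of this list higher and 2 lower. Leaving out LPS replicate 1 or LPS replicate 2 left 5 higher and 1 lower.

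The 5 genes most like the mean profile of the 5 tested members over the 4 libraries were Dgat2, Snx20, Nfkb1, Ticam1 and Abtb2, by the root mean square distance of centred log2 values. Their distances were 0.0278 to 0.0710, against a median of 0.818 over all tested records and 0.113 to 0.271 for the members themselves. Since the 5 genes were picked for the smallest distances, values below that median are fixed by the choice. Nfkb1, which encodes the NF-kB subunit p50, had 545 and 527 normalised counts in the LPS libraries, against 207 and 161 in the controls. With 4 libraries in 2 groups this likeness is largely one of fold change.

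**Figure D5:**
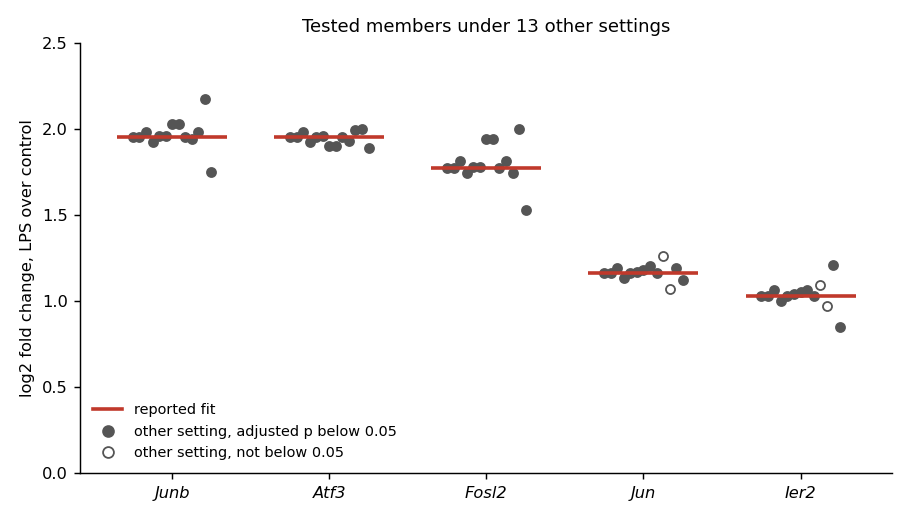
Log2 fold changes (vertical axis) of the 5 tested members under 13 other settings (points, open where the adjusted p was not below 0.05) beside the reported value (red bar). Junb, Atf3 and Fosl2 stay filled under all 13, while Jun and Ier2 have 2 open points each, without LPS replicate 1 and without LPS replicate 2.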

How the data were processed

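RNA-seq was measured in 2 LPS and 2 control libraries of BV-2 cells. The authors deposited counts for each RefSeq record as whole numbers. Although the table is called normalised, column totals differ and each column contains every whole number from 1 to at least 228, so the values were used as raw counts. The submitters' processing notes list HTSeq 0.6.1, Cufflinks 2.2.1, TopHat2 2.0.10, Trimmomatic 0.33, CASAVA 1.8.2 and the build mm10, without roles. No source used here names the annotation release or whether counting was stranded. Ribosomal RNA was removed and a directional kit was used, per the labels' protocols. Symbols and positions came from RefSeq on GRCm38.p6, and lengths and GC content from GENCODE M21 transcripts, found for 99.2% of tested records.

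Records were kept by filterByExpr (minimum count 10), scaled by TMM, and tested on all 4 libraries without covariates by edgeR 4.0.16 (quasi-likelihood, R 4.3.3), with Benjamini-Hochberg adjustment over 6981 records and a threshold of 0.05. SE is the log2 fold change over the root of F. The code was tested on simulated data, where it recovered 97 of 100 4-fold changes and 65 of 100 2-fold changes, with 14 false calls. Alternatives were DESeq2 1.42.0, other scalings, filters, a replicate block, GC and length correction, summed records and leaving out each library. Chosen after seeing the data were exact ratios for low counts, ratios between members, and lists without genes that passed the filter in LPS libraries alone. The members and lists were chosen with earlier results of these data known. All 10 members were named, and from each list the 3 largest changes past the threshold and the 2 most abundant genes not past it, plus the 5 genes most alike. A gene named by this rule among the upstream regulators is not reported here, though it is part of that list's counts. Promoters are from RefSeq. Motifs were searched only in members with exactly 1 window, which left out Egr2 with 5 windows and Ier2 with 0. Egr1 was also left out of this search. Fosb and Jund, each with 1 window, were searched but their windows are not shown. Fosb matched the CRE core at 60 to 56 bases, the EGR motif at 50 to 42 and the NF-kB motif at 188 to 179. No match was listed for Jund. Without molecular identifiers, exact intervals and floors describe counting error alone. Jdp2 stands in the AP-1 list and the upstream list.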

Additional observations from a re-analysis of the deposited data

How the results depend on the processing

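Junb, Atf3 and Fosl2 kept their direction and their call under all 13 alternatives, with log2 fold changes of 1.75 to 2.17, 1.89 to 2.00 and 1.53 to 2.00. Jun and Ier2 kept their direction, at 1.07 to 1.26 and 0.85 to 1.21, and lost the call when an LPS library was left out, where the spread comes from the control pair and the lone LPS library is assumed to vary alike. The cause was not tested. Leaving out each library in turn gave 165 to 723 records higher and 39 to 581 lower, 3 to 6 members higher, 1 to 4 other AP-1, ATF and EGR genes higher and 0 to 2 lower, 1 to 3 upstream regulators higher and 0 to 1 lower, and 5 to 10 known targets higher and 1 to 2 lower.

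The replicate block gave 401 records higher and 288 lower, with 2 other AP-1, ATF and EGR genes higher and 2 lower. The labels do not say that a number marks a shared culture, so the numbers were not taken as pairs. Deviations of same-numbered libraries correlated at 0.242 across records. That value does not settle whether same-numbered libraries are paired, and pairing was not tested. With the GC and length trend removed there were 436 higher and 336 lower (3 other AP-1, ATF and EGR genes higher), and with the replicate block added 555 and 546, with 4 of those genes higher, 4 lower, 4 upstream regulators higher and 1 lower. A mean of at least 50 normalised counts left 164 higher and 54 lower, 1 upstream regulator and 4 known targets higher. DESeq2 gave 66 lower records and 5 known targets higher, and no filter 209 lower and 2 other AP-1, ATF and EGR genes higher. Of genes that did not pass, Map2k1 changed sign without LPS replicate 1 (-0.07, in a range of -0.07 to 0.24 over the libraries left out). Vim changed sign with the mean filter (-0.00078), without LPS replicate 1 (-0.0042) and without control replicate 2 (-0.26, in a range of -0.26 to 0.38). The cause was not tested. Low counts limit the comparison of Fos, Fosb and Egr2, each with under 20 counts per group. The cause of these low counts was not tested.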
